A study of Homo sapiens with 6 samples.

Results

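The genes described here encode the machinery by which epithelial cells hold on to the matrix beneath them: 7 integrin alpha subunits, 6 integrin beta subunits, 7 laminin chains, and 22 adaptors, kinases and membrane partners of adhesion sites. These 42 genes were listed by name and found by symbol among the 20263 genes of the deposited table, where each had a line. They were read in HCT116, a human colorectal cancer line grown from a carcinoma of the colon. The tested samples were 3 libraries of HCT116 cells treated with CSE, which, with smoking in the series title, is taken to mean cigarette smoke extract. They were set against 3 libraries of HCT116 cells, called WT here, whose titles give HCT116 without CSE. The sources used here give no dose, exposure time or solvent control, and the labels do not say whether the 3 samples of a group were separate cultures.

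Integrins are receptors of 1 alpha and 1 beta subunit that span the plasma membrane. Laminins are secreted trimers of an alpha, a beta and a gamma chain that form the sheet of the basement membrane, and they are ligands of integrins such as alpha3-beta1, alpha6-beta1 and alpha6-beta4. Inside the cell, talins and kindlins bind beta subunit tails and switch integrins on, focal adhesion kinase, Src, paxillin and the Cas proteins signal from the clustered receptors, and vinculin, alpha-actinins and filamin tie them to actin. Alpha6-beta4 is the exception, since it joins hemidesmosomes, which attach to keratin filaments. Laminin-332, whose alpha and beta chains are encoded by LAMA3 and LAMB3, is the ligand best known for its place under hemidesmosomes and at the edge of invading carcinoma cells.

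Values are TPM, a length-corrected share of all transcripts in a library. The depth of the libraries is unknown. Between 12640 and 12740 genes reached 1 TPM in CSE samples and between 12741 and 12778 in WT samples. The libraries carried epithelial RNA: 8 of 9 epithelial markers were at 1 TPM or more in every sample, with KRT8, EPCAM and CDH1 among them, while VIL1, a brush border gene, stayed at 0.05 TPM or less. Summed endothelial markers came to 1.31 to 1.53 TPM in CSE and 0.75 to 1.22 TPM in WT. Summed leukocyte markers came to 0.21 to 0.54 TPM in CSE and 1.00 to 1.84 TPM in WT. Of 6 fibroblast markers only COL1A1 exceeded 1 TPM, at 37.0 to 37.5 TPM in CSE and 42.6 to 44.8 TPM in WT, and DCN was listed at 0 throughout. Mitochondrially encoded genes held 25.5% to 25.8% of TPM in CSE and 27.0% to 30.2% in WT. Calls with these genes left out are given below, and the cause of the difference was not tested.

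The laminin-332 genes LAMA3 and LAMB3, ITGB1, the kindlin gene FERMT1 and the Cas gene NEDD9 fell with CSE. Also lower were LAMB2, ITGA3, LAMC1, TLN2, ITGB5 and LAMA1, whereas CAV1, ITGB4, TLN1, DST, CD44, PXN and CAV2 rose. The calls of ITGB5, LAMA1 and CAV2 were lost when certain single samples were left out. Of the 42 members 40 passed the filter of 1 TPM in at least 3 samples. At a limma adjusted p under 0.05 over all 12793 genes tested, 7 members were higher and 11 were lower, and 22 did not pass. The background was high, since 50.1% of all tested genes were called (24.5% higher, 25.6% lower), so the 18 calls among 40 members lay near it. With mitochondrially encoded genes left out, 6 members were higher and 16 lower, beside 2353 and 4548 of 13096 genes tested. The median of all genes moved to -0.06 in that setting. The median log2 fold change of the members was -0.01, and that of all genes tested was -0.00. Called members whose higher group mean exceeded the lower one by at least 25% numbered 9, of which 8 were lower and 1 was higher, beside 19% of all genes (10.3% lower). Against a minimum change of 1.2-fold 6 members passed in limma's treat test, with 6.96% of all genes: ITGB1, LAMA3, LAMB3, FERMT1 and NEDD9 were lower and CAV1 was higher. CSE and WT values were fully separated for 25 of the 40 members, beside 57.4% of all genes.

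**Figure D1:**
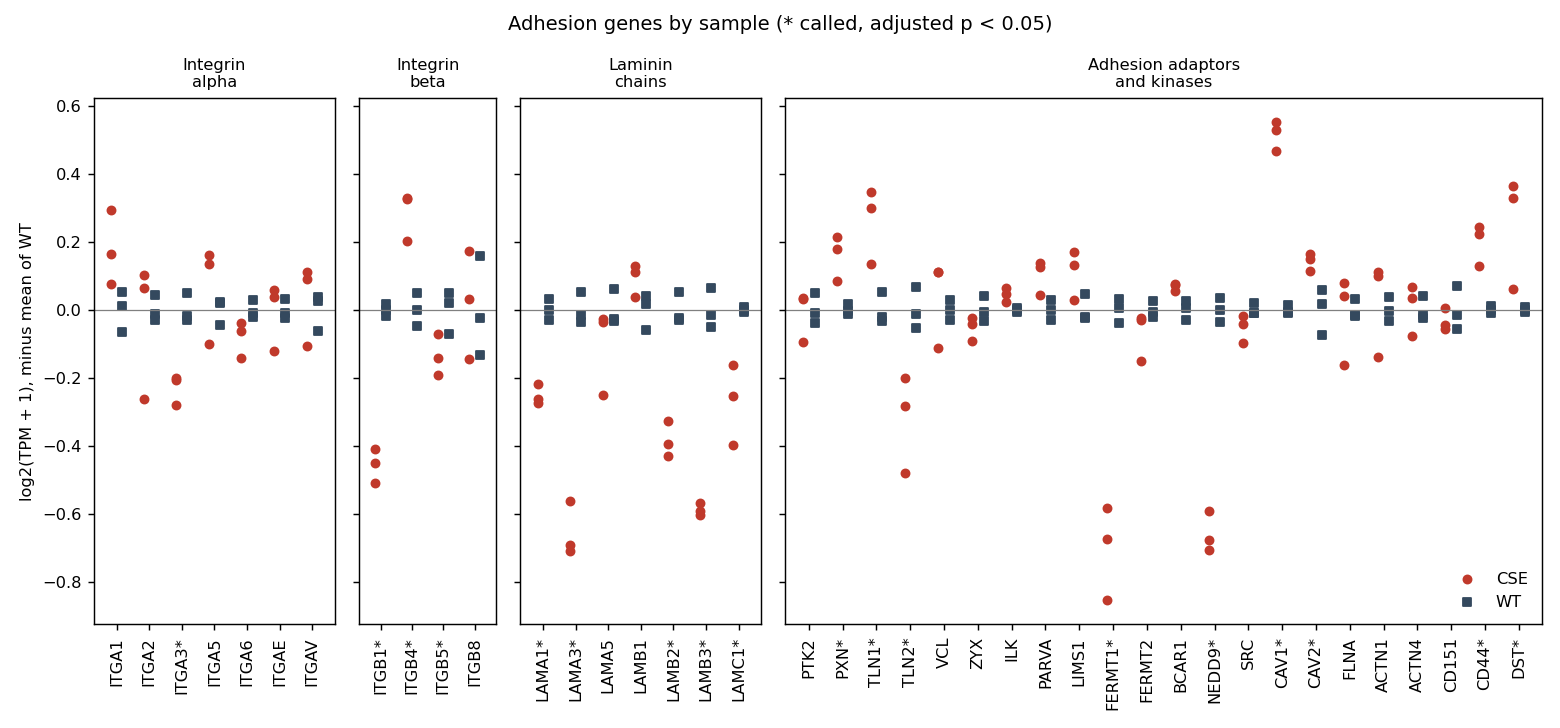
Each point is a sample: log2(TPM + 1) of a member minus the mean of the WT samples, for the 40 tested members in 4 panels by subgroup, with CSE as circles left of WT as squares and an asterisk for a call at adjusted p under 0.05. FERMT1, NEDD9, LAMA3 and LAMB3 show the deepest CSE values and CAV1 the highest, while many adaptors lie around the line of WT.

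CSE replicate 3 stood apart, and its values touch many of these genes. It was the lowest of the CSE samples for 36 of the 40 tested members, beside 57.9% of all genes tested. The members have long transcripts (median 5057 nucleotides for the longest coding transcript, 3344 for all genes tested). Among all 3347 tested genes with a coding transcript of at least 5000 nucleotides, CSE replicate 3 was lowest of the CSE samples in 86.7%, at a median of 9.68% below the other CSE samples. Across 12748 genes, which share the same 6 libraries, its difference from the other CSE samples had a Spearman correlation of -0.54 with transcript length, and the CSE minus WT fold change one of -0.16. Without CSE replicate 3 the members called higher numbered 13 and those called lower 9. Over all genes 3518 were then higher and 3040 lower, against 3130 and 3277 with every sample. The part of transcript length in the fold changes was not tested. In bulk RNA a lower share can mean fewer cells that carry a transcript or less of it per cell, and these cannot be told apart.

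Among the alpha subunits, which choose the ligand, only the most abundant one was called lower. ITGA3 encodes the alpha3 subunit of the laminin receptor alpha3-beta1 (ENSG00000005884, GRCh38 chromosome 17, 50055968 to 50090481, plus strand). It was at 692, 695 and 658 TPM in the CSE samples and at 826, 782 and 789 TPM in the WT samples. All CSE values lay below all WT values (mean 682 ± 20.7 TPM in CSE and 799 ± 23.8 TPM in WT, SD, n = 3 each; limma log2 change -0.23 ± 0.0378 SE, adjusted p = 3.52e-05). In WT its mean ranked 107 among the 12793 tested genes. ITGA3 made up 63.8% to 66.3% of the summed alpha subunit TPM in CSE and 66.9% to 68.7% in WT.

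The other alpha subunits did not pass the test, so 1 of 7 was lower and 0 were higher, beside 25.6% and 24.5% of all genes. Ordered by TPM, ITGA3 was followed by ITGA2, ITGA6, ITGA5, ITGAV, ITGAE and ITGA1, and the ranges of neighbours over the 6 samples did not overlap. ITGA2, the alpha2 subunit of a collagen receptor, was at 169, 173 and 134 TPM in CSE and at 159.8, 166 and 158 TPM in WT. Its groups overlapped, with CSE replicate 3 below and the other CSE samples above all WT samples. ITGA6, the partner of both beta1 and beta4 in laminin receptors, was at 119, 121 and 113 TPM in CSE and at 124, 127 and 123 TPM in WT (log2 fold change -0.08, 95% interval -0.17 to 0.00, limma adjusted p = 0.102). Its CSE values all lay below its WT values, and it was called lower once the genes of the mitochondrial genome were removed (-0.14) or under quantile normalization (-0.12).

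ITGA5 and ITGAV, whose receptors bind fibronectin and other ligands with an RGD motif, stood close to WT. ITGA5 averaged 55.4 ± 5.48 TPM in CSE and 52.8 ± 1.40 TPM in WT (SD, n = 3 each; 95% interval of the log2 difference -0.05 to 0.18). Without CSE replicate 3 it was called higher (log2 fold change 0.15, limma adjusted p = 0.00628). ITGAV averaged 29.9 TPM in CSE and 29.1 TPM in WT, with an interval of -0.09 to 0.15. ITGAE, which with beta7 binds E-cadherin, averaged 8.47 TPM in CSE and 8.51 TPM in WT, and its exons overlap those of HASPIN on the other strand. ITGA1, the alpha1 subunit of a collagen receptor, was near the filter at 2.20, 2.50 and 2.01 TPM in CSE and 1.88, 1.96 and 1.73 TPM in WT. Its CSE values lay above its WT values without a call (log2 fold change 0.18, limma adjusted p = 0.117), and it was called without the variance trend and under quantile normalization. The exons of ITGA1 overlap those of PELO on the same strand, so reads may not be separable.

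**Figure D2:**
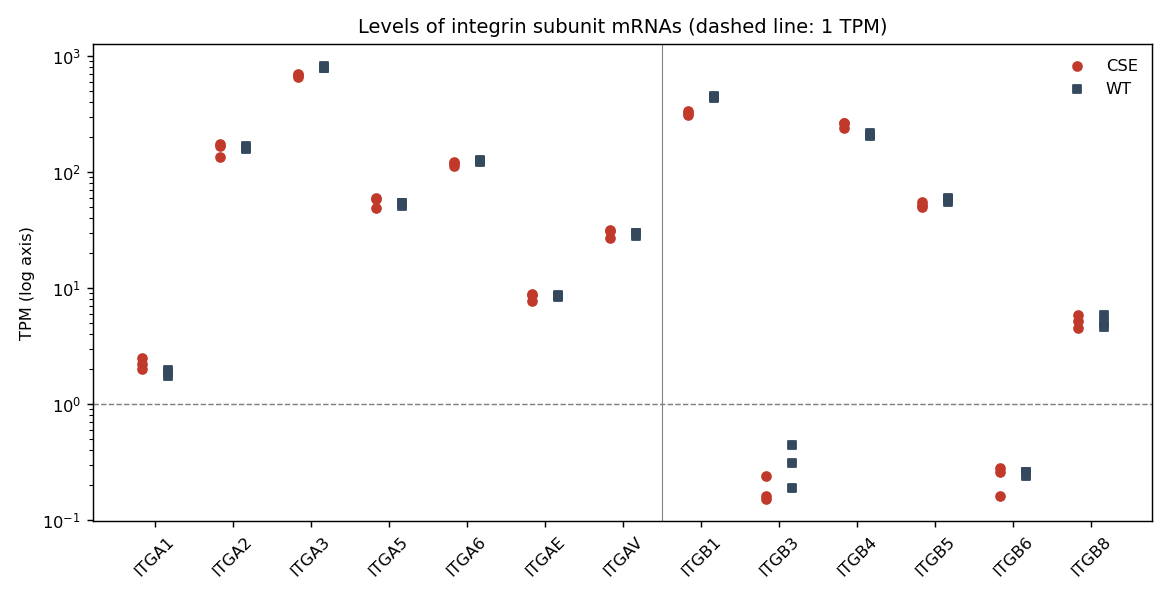
TPM of the 13 integrin subunits on a log axis, 7 alpha left and 6 beta right of the vertical line, with CSE samples as circles left of WT samples as squares and a dashed line at 1 TPM. ITGA3, ITGB1 and ITGB4 stand highest, ITGB1 is lower and ITGB4 higher in CSE, and ITGB3 and ITGB6 lie under 1 TPM.

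The most abundant beta subunits, actin-linked beta1 and keratin-linked beta4, moved in opposite directions. ITGB1 encodes beta1, the partner of most alpha subunits expressed here (ENSG00000150093, GRCh38 chromosome 10, 32900319 to 33005792, minus strand). It was at 324, 334 and 311 TPM in CSE and at 444, 449 and 438 TPM in WT. All CSE samples were lower, by more than the spread within either group (1.37 times lower; limma log2 change -0.46 ± 0.0374 SE, adjusted p = 1.98e-09). ITGB4 encodes beta4, the hemidesmosomal subunit that pairs with alpha6 alone (ENSG00000132470, chromosome 17, 75721328 to 75757818, plus strand). It was at 263, 263 and 241 TPM in CSE and at 217, 203 and 209 TPM in WT. All CSE samples were higher (1.22-fold; limma log2 change 0.29 ± 0.0418 SE, adjusted p = 7.77e-06).

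The balance between these beta subunits can be read within each library, where scaling cancels. For 1 TPM of ITGB1 there was 0.812, 0.789 and 0.775 TPM of ITGB4 in the CSE samples, against 0.488, 0.451 and 0.478 in the WT samples. The ratio was 1.68-fold higher in CSE on average. That the groups did not overlap follows from the opposite shifts of ITGB1 and ITGB4 and is no further result. ITGB4 held 39.7% to 40.8% of the summed beta subunit TPM in CSE and 28.3% to 29.9% in WT, while ITGB1 held 50.2% to 51.2% in CSE and 61.2% to 62.6% in WT. The summed TPM of the beta subunits was 607 to 658 in CSE and 707 to 725 in WT.

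ITGB5, the vitronectin-binding partner of alphaV, had 52.08, 54.75 and 50.30 TPM in CSE and 59.70, 58.50 and 54.78 TPM in WT. The groups were separated only narrowly (limma log2 change -0.14 ± 0.0470 SE, adjusted p = 0.0201). The call was lost without CSE replicate 1 (limma adjusted p = 0.0535), CSE replicate 3 (0.0576), WT replicate 1 (0.0887) or WT replicate 2 (0.0788), and without the variance trend (0.0598). ITGB8, another alphaV partner, averaged 5.21 ± 0.680 TPM in CSE and 5.13 ± 0.630 TPM in WT (SD, n = 3 each; 95% interval of the log2 difference -0.16 to 0.20). ITGB3 and ITGB6 failed the filter, at 0.15 to 0.24 TPM and 0.16 to 0.28 TPM in CSE and at 0.19 to 0.44 TPM and 0.24 to 0.26 TPM in WT. So 1 beta subunit was higher and 2 were lower of the 4 tested, beside 24.5% and 25.6% of all genes.

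Most of the listed laminin chains fell: of 7, 5 were lower, 0 were higher and 2 did not pass, with a median log2 fold change of -0.27. The share of all tested genes called lower was 25.6%. Their summed TPM was 476, 484 and 442 in the CSE samples and 587, 559 and 554 in the WT samples. Among the 7, LAMA3 and LAMB3 of laminin-332 led. LAMB3, its beta3 chain (ENSG00000196878, chromosome 1, 209614870 to 209652466, minus strand), had 79.0, 78.3 and 80.3 TPM in CSE and 125, 118 and 116 TPM in WT. All CSE samples were lower (1.51 times lower; limma log2 change -0.59 ± 0.0415 SE, adjusted p = 2.2e-10), and CSE replicate 3 was not the lowest. LAMA3, its alpha3 chain (ENSG00000053747, chromosome 18, 23689443 to 23956222, plus strand), was at 4.05, 3.62 and 3.56 TPM in CSE and at 6.74, 6.38 and 6.28 TPM in WT. All CSE samples were lower (1.73 times lower; limma log2 change -0.66 ± 0.0751 SE, adjusted p = 2.97e-07).

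Promoter sequence was examined for the members, in windows of 250 bases before to 50 bases after the RefSeq start site (GRCh38.p14). A window was found for 33 of the 42. The AP-1 letters TGANTCA, read on both strands, occurred in 5 of the 33 windows, and in 7.73% of all 34796 windows of that length. They occurred in 1 of 8 windows of members called lower and in 1 of 6 of members called higher. The TEAD letters GGAATG occurred in 4 of 33 windows, 1 of 8 lower and 1 of 6 higher, and in 14% of all windows. A CArG box, the SRF motif, occurred in 2 of 33 windows, in 0 of the lower and 0 of the higher, and in 1.3% of all windows. The stretches shown are those of the 2 members called lower that hold a match, with ITGA5, a member with a match and no call, beside them. The LAMA3 and ITGB1 windows surround start sites inside the annotated genes and lie wholly within them. The LAMA3 window is the only one with 2 AP-1 matches, which lie 125 and 69 bases before the start. The ITGB1 match to TEAD begins 182 bases before the start, and the ITGA5 match to AP-1 begins 6 bases before it. Capitals mark the matched letters, which describe the sequence and are not shown to be bound. In order the stretches lie at chr18:23872870-23872982 (plus strand), chr10:32958382-32958437 (minus strand) and chr12:54419241-54419297 (minus strand).
LAMA3: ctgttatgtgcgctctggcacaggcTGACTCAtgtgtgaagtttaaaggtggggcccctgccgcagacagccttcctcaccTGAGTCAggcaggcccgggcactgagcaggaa
ITGB1: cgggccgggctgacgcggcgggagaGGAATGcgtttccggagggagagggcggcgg
ITGA5: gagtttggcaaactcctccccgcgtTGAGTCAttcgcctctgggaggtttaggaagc

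The chains of laminin-511 and laminin-521, the common laminins of adult epithelia and vessels, did not move as a block. LAMA5, their alpha5 chain and the most abundant laminin mRNA here, was at 172, 173 and 148 TPM in CSE and at 184, 172 and 173 TPM in WT. The groups overlapped (log2 fold change -0.10, limma adjusted p = 0.0857), and it was called lower with mitochondrially encoded genes left out (-0.16), under quantile normalization (-0.16), without CSE replicate 1 (-0.14) and without CSE replicate 2 (-0.14). Without CSE replicate 3 its log2 fold change was -0.03. LAMB2, the beta2 chain, was at 117, 122 and 114 TPM in CSE and at 159.5, 151 and 151 TPM in WT, so every CSE sample was lower (limma log2 change -0.38 ± 0.0411 SE, adjusted p = 1.07e-07). LAMB1, the beta1 chain, averaged 50.2 ± 1.71 TPM in CSE and 47.0 ± 1.74 TPM in WT (SD, n = 3 each) and did not pass (log2 fold change 0.09, limma adjusted p = 0.102). It was called higher without CSE replicate 3 (0.12) and with median-of-ratios scaling (0.10).

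LAMC1, the gamma1 chain shared by most laminins, was at 51.2, 54.7 and 46.3 TPM in CSE and at 61.0, 61.7 and 61.3 TPM in WT. Its CSE values spread more widely but all lay lower (limma log2 change -0.27 ± 0.0510 SE, adjusted p = 0.000153). LAMA1, the alpha1 chain best known from embryonic basement membranes, was at 1.43, 1.36 and 1.34 TPM in CSE and at 1.77, 1.83 and 1.89 TPM in WT. That fall rests on values near the filter (limma log2 change -0.25 ± 0.0934 SE, adjusted p = 0.0292). It was lost under quantile normalization (limma adjusted p = 0.0536) and when CSE replicate 1 (0.0578), CSE replicate 2 (0.0698), CSE replicate 3 (0.0523), WT replicate 2 (0.0762) or WT replicate 3 (0.0736) was left out.

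**Figure D3:**
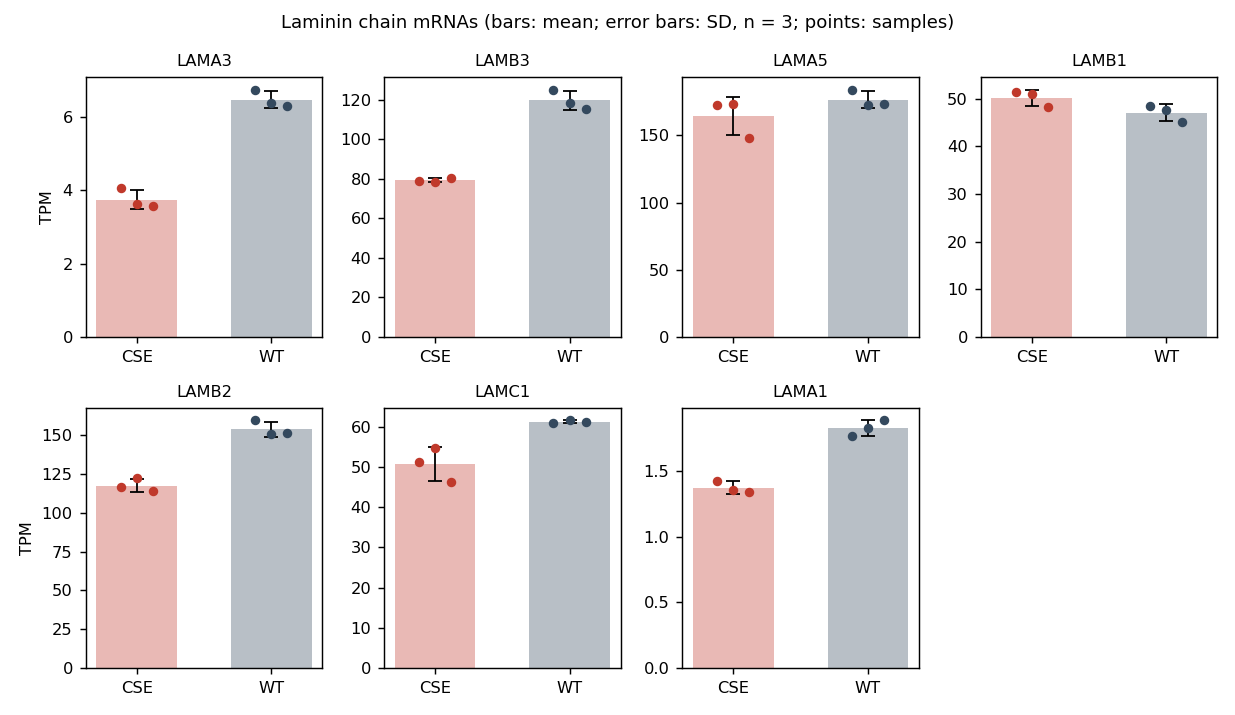
TPM of the 7 listed laminin chains; bars are means, error bars the SD (n = 3) and points the samples, with CSE left of WT and each axis starting at 0. LAMA3 and LAMB3, chains of laminin-332, lie lower in all CSE samples, while LAMA5 and LAMB1 overlap between groups.

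Among the integrin activators, a kindlin and both talins changed, in different directions. FERMT1 encodes kindlin-1, the kindlin typical of epithelia (ENSG00000101311, chromosome 20, 6074845 to 6123544, minus strand). It was at 16.0, 17.1 and 14.0 TPM in CSE and at 26.7, 25.4 and 26.2 TPM in WT. All CSE samples lay below all WT samples (1.66 times lower; limma log2 change -0.70 ± 0.0617 SE, adjusted p = 5.73e-09). On this log2(TPM + 1) scale it was the deepest fall of the 40 tested members, while NEDD9 and LAMA3 fell further as a ratio of TPM. FERMT2, which encodes the more widely expressed kindlin-2, was at 27.4, 27.5 and 25.1 TPM in CSE and at 28.5, 27.9 and 27.5 TPM in WT. It did not pass (95% interval of the log2 difference -0.17 to 0.04, limma adjusted p = 0.278), and was called lower only with mitochondrially encoded genes left out (-0.13). Within libraries the ratio of FERMT1 to FERMT2 was 0.584, 0.621 and 0.557 in CSE, against 0.936, 0.912 and 0.953 in WT.

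TLN1, the talin found in all cells, was at 98.6, 102 and 87.7 TPM in CSE and at 82.9, 78.8 and 78.0 TPM in WT. All CSE samples were higher (1.2-fold; limma log2 change 0.26 ± 0.0493 SE, adjusted p = 0.000159). The exons of TLN1 overlap those of CREB3 on the other strand. TLN2, its less abundant paralog, was at 5.67, 5.30 and 4.49 TPM in CSE and at 7.03, 6.59 and 6.38 TPM in WT, so the CSE samples were lower (limma log2 change -0.32 ± 0.0788 SE, adjusted p = 0.00186). For 1 TPM of TLN2 there were 17.4 to 19.5 TPM of TLN1 in CSE and 11.8 to 12.2 TPM in WT.

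Of the kinases and docking scaffolds, NEDD9 fell, PXN rose and the others did not pass. NEDD9, a Cas-family docking protein that Src phosphorylates, was at 2.01, 1.84 and 1.78 TPM in CSE and at 3.65, 3.43 and 3.54 TPM in WT. Its level was low in both groups, yet the groups lay far apart relative to their spread (1.89 times lower in TPM; limma log2 change -0.66 ± 0.0852 SE, adjusted p = 1.55e-06). On the log2(TPM + 0.1) scale the change was -0.88. BCAR1, the founding Cas protein, averaged 19.8 ± 0.155 TPM in CSE and 18.9 ± 0.394 TPM in WT (SD, n = 3 each), and was not called (log2 fold change 0.07, limma adjusted p = 0.28). PXN, paxillin, was at 183, 187 and 171 TPM in CSE and at 163, 159.9 and 161 TPM in WT, higher in every CSE sample (limma log2 change 0.16 ± 0.0403 SE, adjusted p = 0.00245). PTK2, the focal adhesion kinase gene, averaged 52.7 TPM in CSE and 53.0 TPM in WT, with an interval of -0.11 to 0.09 for the log2 difference. SRC averaged 26.6 TPM in CSE and 27.6 TPM in WT (interval -0.15 to 0.05). These are mRNA levels and say nothing of phosphorylation.

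The complex of ILK, PINCH and parvin joins beta1 tails to actin. Its 3 listed genes gave no call, beside 50.1% of all genes called. Outside the listed members, RSU1, which binds PINCH-1, and LIMS2, the PINCH-2 gene, were called lower, as given below. PARVB, another parvin gene, was not called. ILK, its pseudokinase, averaged 79.3 TPM in CSE and 76.8 TPM in WT (interval -0.04 to 0.13). PARVA, alpha-parvin, averaged 13.2 TPM in CSE and 12.2 TPM in WT (-0.02 to 0.22), and LIMS1, PINCH-1, 17.1 TPM in CSE and 15.8 TPM in WT (-0.01 to 0.23). Without CSE replicate 3 PARVA and LIMS1 were called higher, at 0.13 and 0.15, as they were under quantile normalization, at 0.13 and 0.12. LIMS1 was also called higher with median-of-ratios scaling (0.12). LIMS3 and LIMS4, close copies of LIMS1, have lines of their own in the table, and the sources used here do not say how reads were divided between them.

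The listed proteins that bind and cross-link actin gave 0 calls among 5, beside 50.1% of all genes called. Of FLNA, ACTN1, ACTN4, VCL and ZYX, the filamin gene FLNA was the most abundant of the adaptors, at 359.5, 369 and 312 TPM in CSE and 357, 345 and 346 TPM in WT. CSE replicate 3 lay below all WT samples and the other CSE samples above them. ACTN4 and ACTN1, the alpha-actinins, averaged 322 and 148 TPM in CSE and 320.4 and 145 TPM in WT. VCL, vinculin, averaged 127 TPM in CSE and 123 TPM in WT (interval -0.07 to 0.14), and ZYX, zyxin, 189 TPM in CSE and 196 TPM in WT (-0.13 to 0.03). Leaving out CSE replicate 3 made VCL and ACTN1 higher by call (0.11 for each), but both were slightly negative under quantile normalization (-0.00 and -0.03) and with mitochondrially encoded genes left out (-0.02 and -0.03). Leaving out mitochondrially encoded genes made ZYX lower by call (-0.11), with the same call under quantile normalization (-0.12).

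Of the 5 listed membrane partners and linkers of integrins 4 rose and 0 fell, beside 24.5% and 25.6% of all genes. The division of the adaptors by role was made here, with earlier results of these data known. Among 13 further tested genes of membrane partners and hemidesmosomes, 1 was higher and 8 were lower. CAV1, the coat protein of caveolae, which sit beside adhesion sites (ENSG00000105974, chromosome 7, 116524785 to 116561184, plus strand), was at 193, 197 and 185 TPM in CSE and at 135, 133 and 133 TPM in WT. It was the largest rise among the 40 tested members (1.43-fold; limma log2 change 0.52 ± 0.0385 SE, adjusted p = 4.97e-10). CAV2, its partner and neighbour on chromosome 7, was at 66.9, 67.6 and 65.2 TPM in CSE and at 62.6, 60.9 and 57.0 TPM in WT. This smaller rise (limma log2 change 0.14 ± 0.0447 SE, adjusted p = 0.0107) was lost without WT replicate 3 (0.071) and with mitochondrially encoded genes left out (0.0579). The ratio of CAV1 to CAV2 was 2.84 to 2.91 in CSE and 2.16 to 2.33 in WT.

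CD44, the hyaluronan receptor, was at 263, 267 and 247 TPM in CSE and at 225, 227 and 224 TPM in WT, higher in every CSE sample (limma log2 change 0.20 ± 0.0388 SE, adjusted p = 0.000229). DST, dystonin, whose epithelial form ties alpha6-beta4 to keratins in hemidesmosomes, was at 32.5, 33.4 and 26.9 TPM in CSE and at 25.9, 25.6 and 25.6 TPM in WT. CSE replicate 3 lay just above the WT samples and the other CSE samples well above them (limma log2 change 0.25 ± 0.0625 SE, adjusted p = 0.00204). Without CSE replicate 3 the log2 fold change of DST was 0.35. Other genes of these structures gave no call as deposited: CD151, a tetraspanin that binds laminin-receptor integrins, averaged 192 TPM in CSE and 196 TPM in WT (interval -0.12 to 0.05). CD151 was called lower with mitochondrially encoded genes left out and under quantile normalization (-0.09 in each). PLEC, plectin, averaged 239 TPM in CSE and 234 TPM in WT (-0.05 to 0.12), and COL17A1 1.69 TPM in CSE and 1.60 TPM in WT (-0.16 to 0.26). In all, the adaptors and kinases had 6 higher, 3 lower and 13 without a call of 22, with a median log2 fold change of 0.03, against 24.5% higher and 25.6% lower among all genes. Their higher calls numbered 10 without CSE replicate 3, where 3518 of all genes were higher, against 3130 with every sample. Their lower calls numbered 6 with mitochondrially encoded genes left out, where 4548 of all genes were lower, against 3277 as deposited.

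Ratios of related genes within a library, which do not depend on how libraries are scaled, describe the size of these shifts. The pairs were chosen after their values were seen, so how many of them separated the groups is no result. The ratio of LAMB3 to LAMB1 was 1.53, 1.54 and 1.66 in CSE and 2.58, 2.49 and 2.56 in WT, and that of LAMB3 to LAMB2 was 0.641 to 0.706 in CSE and 0.765 to 0.786 in WT. The ratio of LAMA3 to LAMA5 was 0.0209 to 0.0240 in CSE and 0.0363 to 0.0370 in WT. NEDD9 was at 0.0906 to 0.101 of BCAR1 in CSE and at 0.186 to 0.190 in WT. The ratio of ACTN1 to ACTN4, 0.435 to 0.475 in CSE and 0.452 to 0.457 in WT, overlapped.

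**Figure D4:**
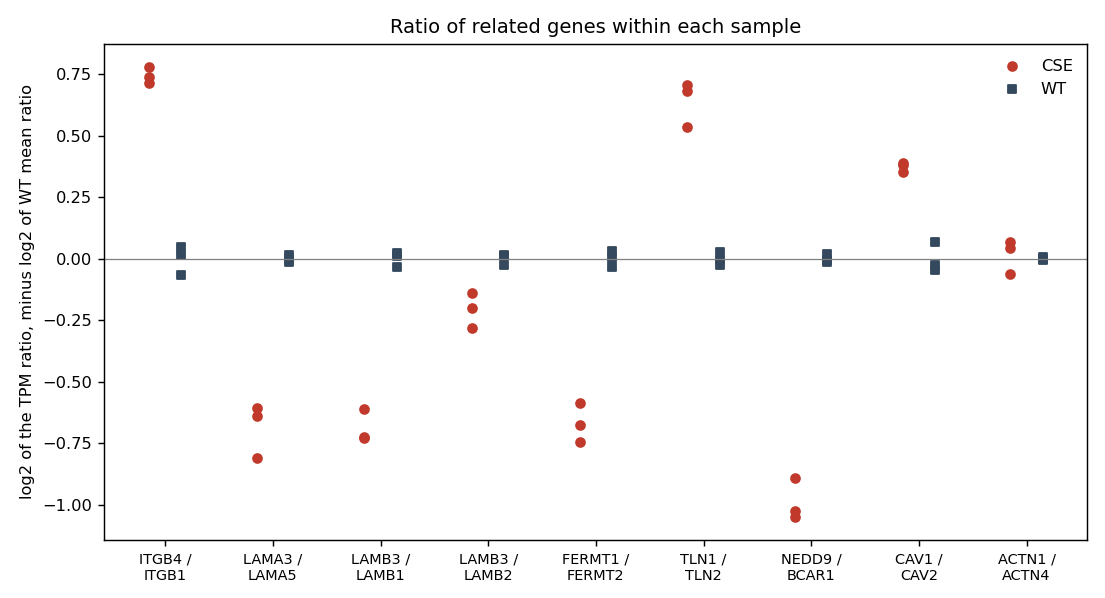
For 9 pairs of related genes, the log2 of the TPM ratio within each sample minus the log2 of the mean WT ratio, with CSE samples as circles left of WT samples as squares. The ratios ITGB4 / ITGB1, TLN1 / TLN2 and CAV1 / CAV2 are higher in CSE, those led by LAMA3, LAMB3, FERMT1 and NEDD9 are lower, and ACTN1 / ACTN4 overlaps.

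Further genes of the adhesion pathway came from lists. From 6 lists with 87 further genes, 64 were tested, of which 11 were higher and 28 were lower (median log2 fold change -0.05), beside 24.5% and 25.6% of all genes. Other laminin chains had 0 higher and 1 lower of 3 tested, and the lower one was LAMC3 (8.79 ± 0.434 TPM in CSE, 13.1 ± 0.231 TPM in WT, SD, n = 3 each; log2 fold change -0.52). Other integrin subunits had 0 higher and 2 lower of 4 tested. ITGAX averaged 3.53 TPM in CSE and 5.75 TPM in WT (log2 fold change -0.58), and ITGA7, an alpha subunit of laminin receptors best known in muscle, 18.9 TPM in CSE and 23.1 TPM in WT (-0.28). ITGB2, the partner of ITGAX, was untested at 0.45 to 0.49 TPM in CSE and 0.96 to 1.19 TPM in WT.

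Matrix ligands had 3 higher and 2 lower of 8 tested. SPP1, osteopontin, averaged 5.40 TPM in CSE and 2.83 TPM in WT (log2 fold change 0.74), and FN1, fibronectin, 11.7 TPM in CSE and 16.2 TPM in WT (-0.44). Other adaptors and kinases had 3 higher and 11 lower of 22 tested. RSU1, which binds PINCH-1, averaged 30.7 ± 2.03 TPM in CSE and 44.4 ± 1.52 TPM in WT (SD, n = 3 each; log2 fold change -0.52, limma adjusted p = 3.8e-08), and LIMS2, PINCH-2, 2.08 TPM in CSE and 3.31 TPM in WT (-0.49).

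Other actin-linking and LIM proteins had 4 higher and 4 lower of 14 tested. FLNC, the filamin of muscle, averaged 31.7 ± 3.47 TPM in CSE and 61.1 ± 1.23 TPM in WT (SD, n = 3 each; log2 fold change -0.93, limma adjusted p = 3.65e-11). TRIP6, a LIM protein of the zyxin family, averaged 98.3 TPM in CSE and 70.5 TPM in WT (0.47). Other membrane partners and hemidesmosome genes had 1 higher and 8 lower of 13 tested. CAVIN3, a caveola coat gene, averaged 13.2 TPM in CSE and 9.63 TPM in WT (log2 fold change 0.42), and SDC1, syndecan-1, 38.0 TPM in CSE and 46.9 TPM in WT (-0.30). CAVIN1, a more abundant caveola coat gene added here after its values were seen, was lower, at 113.5 ± 1.93 TPM in CSE and 128 ± 3.12 TPM in WT (SD, n = 3 each; -0.17, limma adjusted p = 0.000838).

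**Figure D5:**
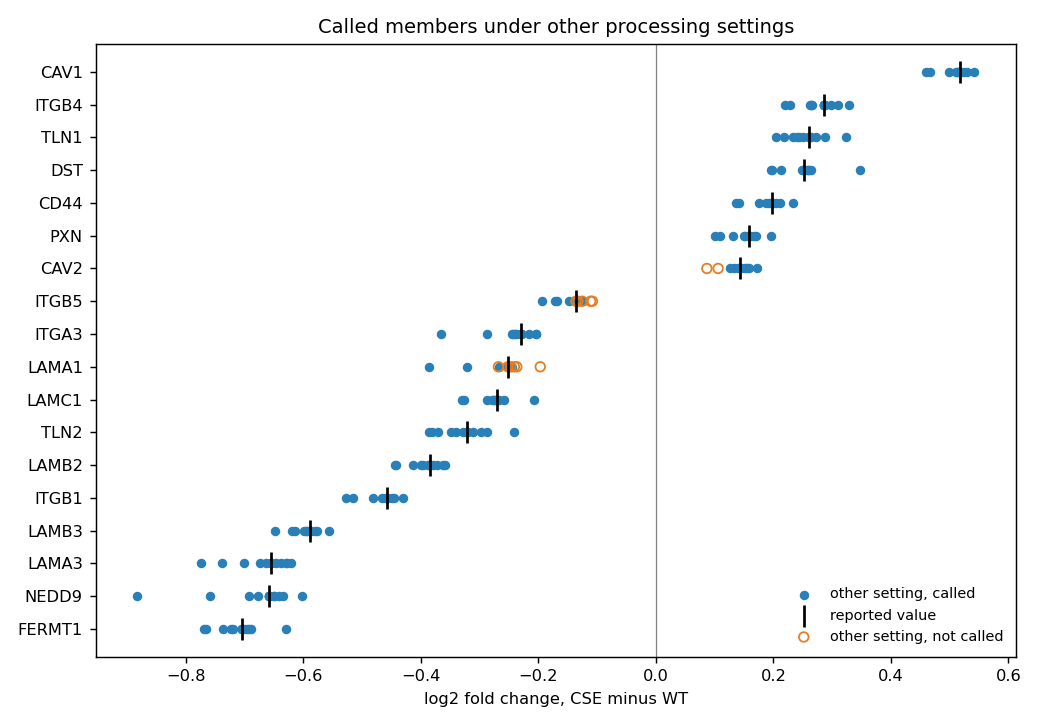
Log2 fold change (CSE minus WT) of the 18 called members: the black tick is the reported value, filled points are other settings, with the test against 1.2-fold left out, in which the gene was called and open circles settings in which it was not. CAV2, ITGB5 and LAMA1 have open circles, and no member crosses 0.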

How the data were processed

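Poly(A) RNA libraries of 6 HCT116 samples were analysed, 3 titled HCT116-CSE and 3 titled HCT116, called CSE and WT here. Groups and replicate numbers are from the titles. The authors deposited 1 table of TPM for 20263 genes, of which 0 sample columns were unmapped; TPM keeps no depth. HISAT2 2.0, Trimmomatic 0.36, bedtools 2.26.0, FastQC 0.11.2 and the GRCh38 build appear, without role or order, per the submitters' processing notes. The sources used here name no counting program, annotation or strandedness, and exons of 24 members overlap a gene on the other strand (8 of the called ones), from which reads may not be separable.

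Symbols matched 20148 IDs, and positions are from GENCODE 29 (GRCh38). Genes with at least 1 TPM in at least 3 samples were tested on log2(TPM + 1), which understates changes of low genes, with limma 3.58.1 in R 4.3.3 (mean-variance trend, no covariate) and Benjamini-Hochberg adjustment at 0.05. Adjusted p-values are over all 12793 genes; 95% intervals are not adjusted. Replicates may be technical, so p-values measure the spread between these samples. The procedure was tested on simulated data. Members called with group means differing by at least 25% of the lower one, and the most abundant of each subgroup, are given by sample, with further called members added after seeing values; from each wider list come the 2 called genes with the largest change, and any other gene named was added. A few genes of the wider lists are not reported here. Members, lists and tests were chosen with earlier results of these data known. Alternatives were another pseudocount (0.1), no filter, quantile normalization, a minimum mean of 5 TPM, scaling by the median of ratios, leaving out mitochondrially encoded genes, no variance trend, a robust prior, a replicate block, a test against 1.2-fold and leaving out each sample. Promoter sequences are from RefSeq (GRCh38.p14).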

Additional observations from a re-analysis of the deposited data

How the results depend on the processing

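Of the 18 called members, 15 kept their call and direction in every setting tested against no change in which they had a value; ITGB5, LAMA1 and CAV2 did not. No called member changed sign. Of the 22 members without a call, 10 were called in none of the 16 settings. Leaving out a sample in turn gave 6 to 13 members higher and 9 to 11 lower: for alpha subunits 0 to 1 and 1 to 1, for beta subunits 1 to 1 and 1 to 2, for laminins 0 to 1 and 4 to 5, and for adaptors 5 to 10 and 3 to 3; over all genes 2525 to 3518 and 2557 to 3210. The 13 and 10 came without CSE replicate 3. Quantile normalization gave 1 alpha subunit higher and 2 lower, and 5 adaptors lower. Without mitochondrially encoded genes (25.5% to 25.8% of TPM in CSE, 27.0% to 30.2% in WT) 2 alpha subunits and 6 adaptors were lower. Then 27.3% of member calls were higher, against 38.9% as deposited, and 34.1% against 48.9% over all genes. Without the variance trend 1 alpha subunit was higher and 1 beta subunit lower, and median-of-ratios scaling gave 1 laminin higher. Tested against 1.2-fold, 1 member was higher and 5 lower: 0 alpha subunits lower, 0 beta subunits higher and 1 lower, 2 laminins lower and 1 adaptor higher, with 431 and 460 over all genes. Causes of these moves were not tested. Same-numbered samples did not deviate together (correlations -0.0711, 0.0150 and -0.0883), so the numbers were not taken as pairs. With the replicate block 7 members were higher and 11 lower, and 3188 and 3349 genes over all. At a mean TPM of at least 5 the lowest members were not tested.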
